A study of Mus musculus with 13 samples.

Results

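The comparison described here sets mouse embryonic fibroblasts (MEFs) after 5 days of induced reprogramming with an empty retroviral vector against MEFs that were not reprogrammed, by bulk RNA-seq read counts. Its members are 6 of the 13 libraries, chosen by the column names of the deposited count table: pMXs replicates 2, 100 and 250 and Untreated replicates 1, 2 and 100. All 6 are labelled as primary Tet2-/- MEFs with the inducible OKSM factors (Pou5f1, Klf4, Sox2 and Myc) and the rtTA transactivator, from embryonic day 12.5, with V6.5 129XBI/6 given as strain background and 5% oxygen in culture. The pMXs cells went through 2 rounds of retroviral infection, were seeded on mitomycin-treated feeder MEFs and were kept in medium with 1000 U/mL LIF, 1 µM PD0325901 (an inhibitor of the ERK pathway), 3 µM CHIR99021 (an inhibitor of GSK3) and 2 µg/mL doxycycline, which switches the factors on. The Untreated cells were grown in serum medium for fibroblasts, and whether they had received the empty vector is not clear from the labels. No cell sorting or feeder depletion is named, so factor induction, medium, feeders and infection cannot be told apart in this comparison, and neither can fewer cells of a type and less RNA per cell. Both groups lack working Tet2, so the comparison shows day 5 without it and not the effect of its loss.

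Reprogramming turns a differentiated cell into one with the properties of an embryonic stem cell. Early in the process fibroblasts lose mesenchymal traits such as matrix secretion and contractile fibres, take up epithelial traits such as cell junctions, and divide faster, while the self-sustaining network of pluripotency genes is switched on late. Tet2 is one of the enzymes that oxidise methylated cytosine in DNA, a step on the way to demethylation.

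Levels are CPM, read counts scaled to a common library total with TMM factors. These centre the bulk of genes between libraries and so assume that most genes do not change or change evenly. Values by library are given in the order Untreated replicates 1, 2 and 100 and pMXs replicates 2, 100 and 250, with n = 3 and 3 unless libraries are said to be left out. A gene is said to have risen or fallen where the adjusted p-value was under 0.05, and ± after a log2 fold change is the standard error. Total counts ran from 14310277 to 25991708 over the 6 libraries, and a first principal component of the 6 separated the groups with 91.8% of the variance. Untreated replicate 100 stood apart from the other Untreated libraries on the second component, which held 3.68% (17.4, 8.37 and -24.5 against 5.78, -2.43 and -4.59). In both groups the values fell with the replicate number. The libraries were prepared in 2 sets, and the labels do not say which library was in which. Whether the replicate numbers follow these sets is therefore not known, and the numbers are not balanced between the groups. Of 13 fibroblast markers, 12 fell and Vim, an intermediate filament gene, did not pass (6628, 6235 and 5970 CPM against 6108, 7081 and 7965). The surface marker Thy1 stood at 895, 914 and 749 CPM in the Untreated libraries and at 153, 182 and 172 CPM with pMXs, lower but not absent. Tet2 reads were 37.8, 45.4 and 48.3 CPM against 58.8, 39.1 and 41.1 CPM, and reads outside a disrupted part of the gene check nothing about its function.

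Most tested genes differed between the 2 groups. Of 14607 genes tested, 10234 (70.1%) were called, 5118 higher with pMXs (35.0%) and 5116 lower (35.0%). When libraries were scaled by their totals alone, 10428 genes were called, 60.4% of them higher in place of 50%. The median log2 fold change over all genes was then 0.166 in place of -0.00134. The even split of higher and lower genes therefore depends on the scaling. Changes of at least 2-fold were called for 1950 higher genes (13.3%) and 2250 lower ones (15.4%), and changes of at least 8-fold for 432 (2.96%) and 374 (2.56%). The number called was 10024 without Untreated replicate 100. The groups did not overlap for 72.0% of genes. The median absolute log2 fold change of called genes was 0.828.

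**Figure D1:**
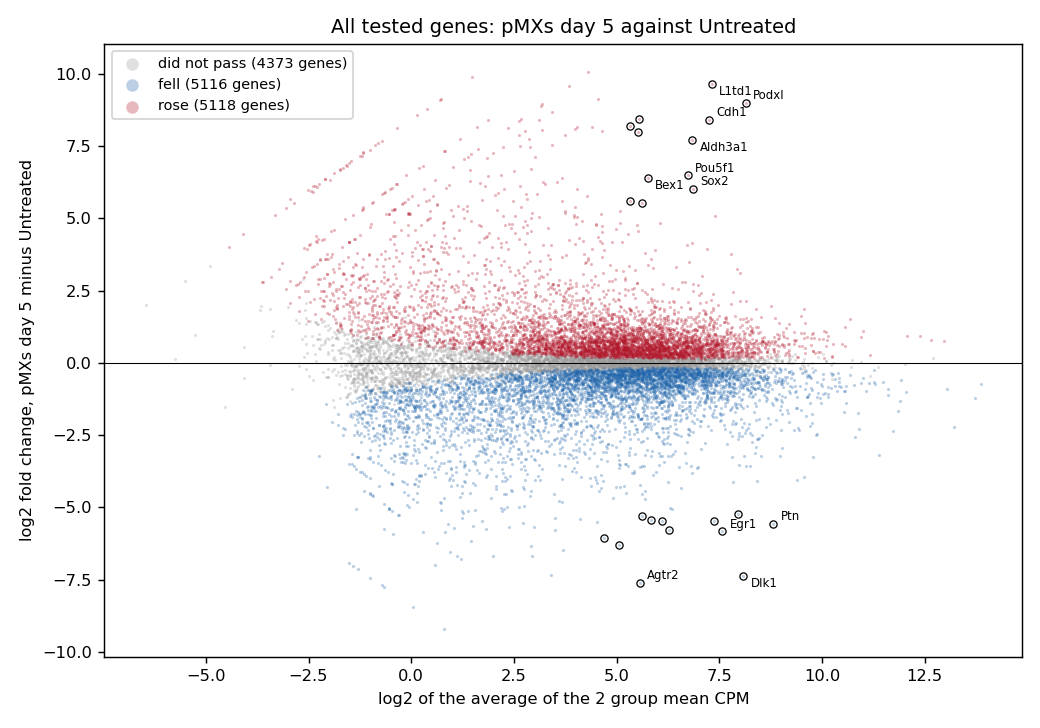
Log2 fold change of each of the 14607 tested genes (y axis) against the log2 of the average of the 2 group mean CPM (x axis), with red for 5118 genes that rose, blue for 5116 that fell and grey for those that did not pass. Circles mark the 12 leading higher and 12 leading lower genes, some with their names; slanted streaks on the left are genes with few or no reads in 1 group.

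Among genes of at least 50 CPM in the higher group, the 12 largest rises included Podxl, Shisa3, Nrarp, Ccdc88c and Pllp. Podxl, an anti-adhesive sialomucin of pluripotent and epithelial cells, was at 0.915, 1.81 and 0.632 CPM in the Untreated libraries and at 602, 544 and 546 CPM with pMXs, 508-fold higher (log2 fold change 8.99 ± 0.23, adjusted p = 2.7e-13). Shisa3, a regulator of Wnt and FGF receptor maturation, went from at most 0.389 CPM to 103, 93.1 and 82.7 CPM. Nrarp, a feedback inhibitor of Notch signalling, rose from 1.71, 2.01 and 1.12 CPM to 82.3, 78.3 and 75.4 CPM. In each of these genes the pMXs libraries lay close together, and their distance from every Untreated one is required by the choice of these genes. Ccdc88c, which encodes the Dishevelled-binding protein Daple, rose by 5.52 ± 0.17 and Pllp, a membrane protein gene of myelin and epithelia, by 7.98 ± 0.18. The induced factors Pou5f1 (6.49 ± 0.20) and Sox2 (6.02 ± 0.21) were among the 12 and were part of the treatment. Klf4 changed least of the 4 factors, from 175, 178 and 178 CPM to 438, 424 and 437 CPM.

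The 12 leading lower genes included receptors, secreted growth factors and a collagen chain. Agtr2, the type 2 angiotensin receptor, was at 60.4, 60.5 and 162 CPM in the Untreated libraries and at 0.127, 0.613 and 0.616 CPM with pMXs, 196-fold lower (log2 fold change -7.62 ± 0.58). Pdgfra, the receptor for platelet-derived growth factor that marks fibroblasts, dropped from 108, 123 and 174 CPM to 1.65, 3.56 and 3.76 CPM. Fgf10, a growth factor of limb and lung mesenchyme, was at 122, 140 and 195 CPM against 2.28, 3.14 and 2.81 CPM. Untreated replicate 100 was the highest library for all 3, and every pMXs library was below the lowest Untreated one, as the choice of these genes requires. Dlk1, a Notch ligand relative that restrains fat cell differentiation, was at 624, 480 and 514 CPM against 3.1, 2.64 and 4.24 CPM (166-fold lower). Ptn, the heparin-binding growth factor pleiotrophin (log2 fold change -5.57 ± 0.23), and the gap junction gene Gjb2 (-5.29 ± 0.29) fell as well. Egr1, an immediate early transcription factor downstream of ERK, fell from 342, 304 and 478 CPM to 6.91, 4.44 and 9.17 CPM.

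**Figure D2:**
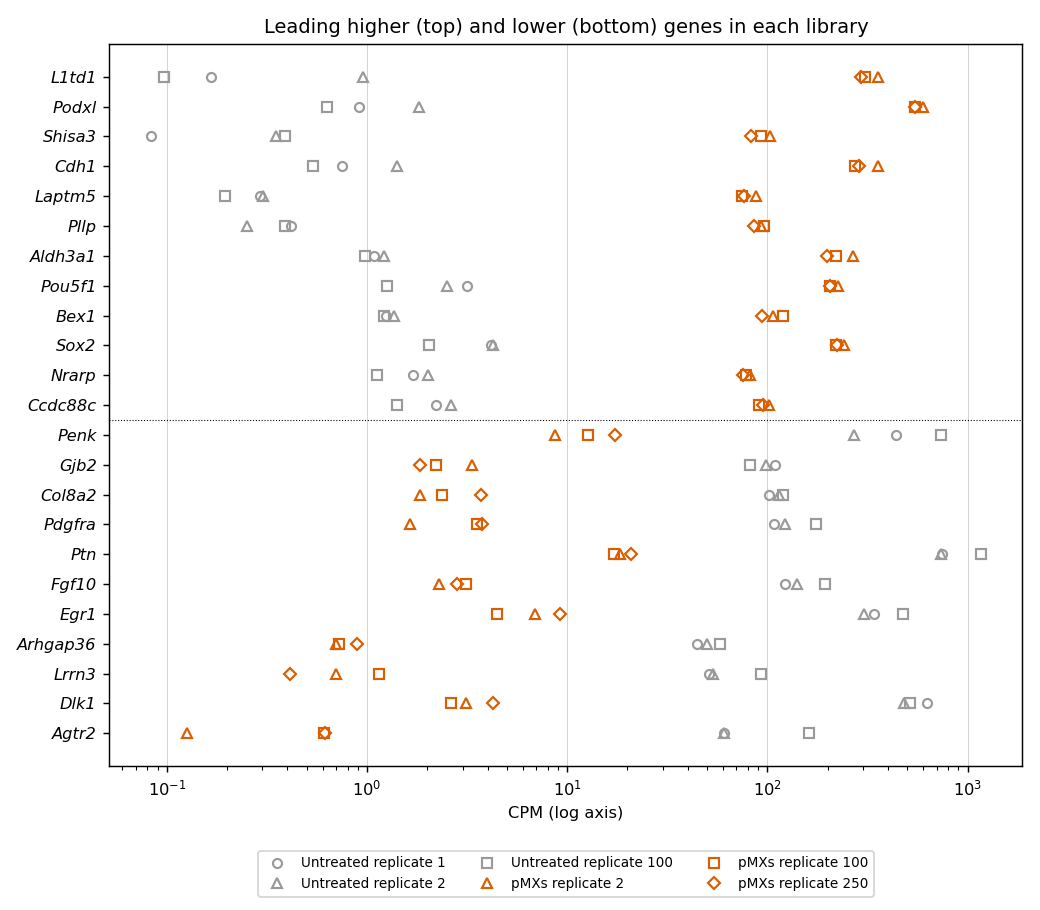
CPM on a log axis (x) of the 12 leading higher genes (above the dotted line) and 11 of the 12 leading lower genes (below), with 1 symbol per library, grey for Untreated and orange for pMXs. For each gene the 3 grey and the 3 orange symbols stand apart, as the choice of these genes requires; in Agtr2, Ptn and Penk the Untreated libraries spread visibly, with replicate 100 the highest.

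A small set of genes was near absence in 1 group and abundant in the other. With a mean under 0.5 CPM in Untreated and of at least 20 CPM in pMXs there were 17 genes, and 4 had the opposite pattern. Besides those already named, the 17 held Insm1, a zinc finger factor of neuroendocrine cells, with 2 counts in all Untreated libraries together against 1579 with pMXs (ratio 900, 95% counting interval 249 to 7440). Cyp11a1, which makes pregnenolone from cholesterol, had 3 counts against 1191 (ratio 453, interval 155 to 2200). Acsbg1, a long-chain acyl-CoA synthetase gene, was at 41, 43 and 41.9 CPM with pMXs and Nup210, a nuclear pore membrane protein gene, at 35.5, 27 and 32.7 CPM. The others among the 17 included Pcsk1n, Tgm3, Eef1a2, Exph5 and Rec8. The 4 opposite genes were Agtr2, the immediate early factor Egr3 (22.6, 19.3 and 21.3 CPM against 0.19, 0.0766 and 0.137 CPM), the urea transporter Slc14a1 (25.7 ± 3.41 against 0.298 ± 0.0982 CPM, SD) and the cGMP-dependent kinase Prkg2 (22.1 ± 3.6 against 0.403 ± 0.26 CPM, SD).

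Epithelial genes were higher with pMXs. Cdh1, the epithelial cadherin, was at 0.749, 1.41 and 0.535 CPM in the Untreated libraries and at 355, 273 and 286 CPM with pMXs. Of 23 tested epithelial regulators and surface genes 20 rose and 1 fell, with a median log2 fold change of 3.73 (3.04 over 27 genes with no filter, 3.49 with Ovol2, absent from the Untreated libraries, at its lower bound), and 4 further genes of the list were below the filter on low counts. Because a low gene passes that filter through the group where it is high, the counts and medians of lists with genes near absence describe the tested members and are not support of their own. Ehf, an epithelial ETS factor, rose from at most 0.146 CPM to 22.2, 17.5 and 14.5 CPM. Esrp1, a splicing regulator of epithelial isoforms, had 2 counts in the Untreated libraries together against 317 with pMXs (ratio 181, 95% counting interval 49.6 to 1500), and the ETS factor Elf3 had 3 against 293 (ratio 111, interval 37.7 to 543). Sh3yl1, a phosphoinositide-binding adaptor, was the 1 that fell, by 0.38, a call lost under most alternatives, among them scaling by library totals (adjusted p = 0.246) and leaving out Untreated replicate 1 (0.115) or 100 (0.0999) or pMXs replicate 2 (0.0788), 100 (0.137) or 250 (0.0563).

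Promoters of these genes are shown because Snail and Zeb proteins, repressors of epithelial genes in mesenchymal cells, are known to bind the E-box CAGGTG. Of the 5 genes of these families 4 fell and Snai3 rose. Snai1 was at 62.9, 49.1 and 33.4 CPM against 6.91, 7.7 and 5.95 CPM, and Zeb2 at 174, 210 and 253 CPM against 59.5, 59.5 and 64 CPM. Snai2 (-1.96 ± 0.14) and Zeb1 (-0.77 ± 0.09) fell too, and Snai3 went from 0.499, 0.352 and 0.146 CPM to 1.08, 1.42 and 0.753 CPM. In the 250 bases before the transcript start, the letters CAGGTG occurred on either strand (read as CACCTG on the other) in 19.4% of 27025 genes of the RefSeq table and in 18.5% of the 11089 tested genes that could be matched to it. A gene with several listed transcript starts was counted if the 250 bases before any of them held the letters. Cdh1 could not be matched. Of the 20 epithelial regulators and surface genes that rose, 10 were matched and 7 of those held the letters. Of the 20 tight junction and polarity genes that rose, 16 were matched and 9 held them. Over all tested members, whatever their call, 7 of 11 matched epithelial genes and 10 of 21 matched tight junction genes held them. Among matched members that fell these were 0 of 1 and 0 of 4. Whether the letters go with the rise within a list was not tested. Of 30 mesenchymal transcription factor genes that fell, 15 were matched and 2 held them. A match is a description of the sequence and not a measured binding site. The windows below are from RefSeq on GRCm38.p6, a build other than the one used for counting, written 5′ to 3′ along the gene's strand with the E-box letters in capitals: Epcam, an epithelial adhesion molecule (chr17:87635729-87635978, plus strand), Crb3, an apical polarity protein (chr17:57061951-57062200, plus strand), Ap1m2, an epithelial clathrin adaptor subunit (chr9:21312334-21312583, minus strand), and Spint2, a membrane protease inhibitor (chr7:29281978-29282227, minus strand).
Epcam: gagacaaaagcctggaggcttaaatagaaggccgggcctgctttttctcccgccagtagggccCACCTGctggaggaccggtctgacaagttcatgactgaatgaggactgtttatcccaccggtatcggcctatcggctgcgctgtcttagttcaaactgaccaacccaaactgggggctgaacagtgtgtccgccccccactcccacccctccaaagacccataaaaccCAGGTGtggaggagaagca
Crb3: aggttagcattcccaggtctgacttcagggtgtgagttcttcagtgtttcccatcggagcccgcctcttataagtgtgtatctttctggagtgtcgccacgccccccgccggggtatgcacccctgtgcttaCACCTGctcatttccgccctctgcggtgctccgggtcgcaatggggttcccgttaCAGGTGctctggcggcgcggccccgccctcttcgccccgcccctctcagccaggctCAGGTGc
Ap1m2: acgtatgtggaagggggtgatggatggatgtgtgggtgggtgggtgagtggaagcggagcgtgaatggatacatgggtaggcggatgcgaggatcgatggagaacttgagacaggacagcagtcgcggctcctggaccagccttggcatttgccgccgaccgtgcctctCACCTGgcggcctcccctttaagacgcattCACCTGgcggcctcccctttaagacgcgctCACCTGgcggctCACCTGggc
Spint2: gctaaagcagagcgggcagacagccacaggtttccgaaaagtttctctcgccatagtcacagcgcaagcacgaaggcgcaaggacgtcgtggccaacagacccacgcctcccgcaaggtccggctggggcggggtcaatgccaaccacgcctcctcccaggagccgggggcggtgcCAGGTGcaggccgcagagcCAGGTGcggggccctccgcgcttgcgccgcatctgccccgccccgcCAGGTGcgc
Epcam was at 0.0416, 0.201 and 0.0487 CPM in the Untreated libraries and at 9.19, 9.99 and 7.8 CPM with pMXs (log2 fold change 6.51 ± 0.37). Spint2 rose from 6.49, 7.35 and 7.49 CPM to 33.3, 36.4 and 31.3 CPM. Crb3 had 2 counts in the Untreated libraries together against 77 (ratio 43.9, 95% counting interval 11.7 to 369), and Ap1m2 had 3 against 89 (ratio 33.8, interval 11.2 to 167). These 4 genes were picked for their sequences after their values were seen, as were the Snail and Zeb genes.

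Junction genes moved unevenly within families. Of 27 tested tight junction and polarity genes 20 rose and 4 fell (median log2 fold change 2.24), and of 21 tested desmosome and keratin genes 14 rose and 3 fell (median 1.73). Among claudins, the strands of tight junctions, Cldn6 had 1 count in the Untreated libraries together against 261 (ratio 298, 95% counting interval 53 to 11800) and Cldn4 had 3 against 417 (ratio 159, interval 53.9 to 772). Occludin (Ocln) had no reads in Untreated and was at least 55.9-fold higher with pMXs, taking 3 counts over the group as the floor. In the other direction Cldn19 had 299 counts against 2 (131-fold, interval 36 to 1090), and Cldn1 fell from 12.7, 15.9 and 11.3 CPM to 0.76, 1.07 and 0.889 CPM. Desmoplakin (Dsp), which ties desmosomes to keratin filaments, was at 26.7, 36.7 and 25.4 CPM against 366, 186 and 167 CPM, with pMXs replicate 2 well above the other pMXs libraries. The keratin Krt8 rose by 5.87 ± 0.38, while its usual filament partner Krt18 did not pass (1.21, 1.46 and 1.61 CPM against 1.65, 2.64 and 2.05 CPM, adjusted p = 0.071). Krt7 fell, from 1.31 to 0.286 CPM.

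Integrins were mostly lower, apart from the pair of hemidesmosomes, and laminins went both ways. Itgb4, the integrin beta chain of hemidesmosomes, was at 11.2, 9.37 and 8.56 CPM against 382, 298 and 304 CPM (33.6-fold, log2 fold change 5.07 ± 0.21). Its partner Itga6 rose by 0.98 ± 0.08, and these were the 2 of 18 tested integrins that rose, while 12 fell (median -0.947). The collagen receptor chains Itga1 (-2.74) and Itga2 (-3.90) and the mesenchymal chain Itga8 (-2.64 ± 0.12) fell. Of 16 tested laminin and basement membrane genes 8 rose and 4 fell (median 0.401). The summed level of the list was lower with pMXs, at 7128, 7907 and 6494 CPM against 5954, 4828 and 5479 CPM. Lama1, the laminin alpha chain of the early embryo, went from 3.2, 5.29 and 2.63 CPM to 103, 75.5 and 84.6 CPM, and Lamb3, a laminin beta chain of epithelia, rose by 1.85. The linker proteins of the basement membrane went opposite ways: Nid1 was at 1373, 1485 and 1249 CPM against 300, 296 and 311 CPM (-2.18 ± 0.08), and Nid2 at 268, 283 and 273 CPM against 710, 679 and 780 CPM (1.40 ± 0.07).

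Genes of the fibroblast matrix were lower as a rule, with a few exceptions of opposite sign. Of 17 elastic fibre and microfibril genes 17 fell (median -2.10), of 40 tested collagen chains 32 fell and 3 rose (median -1.19), of 25 matrix glycoproteins and small proteoglycans 21 fell and 3 rose (median -1.86), and of 23 collagen-modifying enzymes 19 fell and 2 rose (median -0.696). Summed over the list, collagen chains were at 55950, 53880 and 52340 CPM in the Untreated libraries and 23620, 23820 and 26110 CPM with pMXs. Of 6 type IV chains, which make the network of basement membranes, 4 fell, with a median of -0.382, and of 11 fibrillar chains 8 fell, with a median of -1.17; this split was made after values were seen. Col8a2, a short-chain collagen, dropped from 102, 115 and 119 CPM to 1.84, 2.37 and 3.69 CPM. Elastin (Eln) was at 729, 580 and 583 CPM against 65, 133 and 139 CPM, and the microfibril gene Mfap2 at 99, 79.9 and 83.2 CPM against 5.64, 6.86 and 9.17 CPM. The elastin cross-linking enzyme Loxl1 fell by 2.32 ± 0.12.

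The matrix genes that rose included secreted proteoglycans. Prelp, a leucine-rich repeat proteoglycan that anchors basement membranes, rose from 163, 197 and 170 CPM to 637, 695 and 723 CPM (1.95 ± 0.16). Fmod, fibromodulin of the same protein family, rose from 368, 428 and 491 CPM to 1077, 1063 and 1171 CPM. Igfbp3, a carrier of insulin-like growth factors, was at 237, 273 and 558 CPM against 1006, 1086 and 1182 CPM, with Untreated replicate 100 the highest of its group but below every pMXs library. Among enzymes, the collagen glycosyltransferase Colgalt2 (5.27 ± 0.42) and the procollagen C-proteinase enhancer Pcolce2 (2.63 ± 0.17) rose.

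Transcription factors of mesenchyme fell in 30 and rose in 2 of 36 tested (median -1.23). Meox1, a homeobox factor of somites, was at 3.75, 4.33 and 5.69 CPM against 0, 0.115 and 0.274 CPM, and Osr1, a zinc finger factor of limb and kidney mesenchyme, at 112, 84.2 and 85.2 CPM against 4.75, 8.58 and 10.7 CPM. The exceptions were Foxd1 (0.62 ± 0.15), a factor of stromal progenitors, and Meox2 (1.27 ± 0.39, adjusted p = 0.0105), the paralogue of Meox1, whose call was lost without Untreated replicate 1 (adjusted p = 0.0573). Hox genes, which record position along the body axis, fell in 26 and rose in 1 of 35 tested (median -0.675). By cluster, a split made afterwards, 8 of 8 tested HoxB genes fell, 8 of 11 HoxA, 5 of 8 HoxC and 5 of 8 HoxD. The 4 largest falls were those of Hoxd11, Hoxd12, Hoxd13 and Hoxb9. Hoxd13, a gene of the distal limb, was at 40.6, 31.3 and 70.6 CPM against 8.75, 21.1 and 20.7 CPM (-1.49 ± 0.33), with pMXs replicate 2 the lowest. Hoxb9 was at 53.3, 58.6 and 54.9 CPM against 18.9, 21.1 and 19.4 CPM, and Hoxa9 did not pass (adjusted p = 0.95).

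Contractile genes fell with the matrix. Of 30 actomyosin genes, many known targets of the serum response factor Srf, 26 fell and 0 rose (median -1.35), or 25 and 1 with library totals. Mylk, the kinase that activates smooth muscle myosin, was at 78.1, 80.6 and 138 CPM against 2.98, 3.79 and 4.45 CPM, and Myh11, a smooth muscle myosin heavy chain, at 91.8, 108 and 98.2 CPM against 6.27, 3.18 and 4.65 CPM. Srf itself did not pass (adjusted p = 0.41, at -0.13). The promoters of Vcl, the adhesion protein vinculin (chr14:20929148-20929397), Myl9, a myosin light chain (chr2:156775214-156775463), and Cnn2, a calponin (chr10:79988350-79988599), all on the plus strand of GRCm38.p6 in RefSeq, are shown because they hold a CArG box, the element bound by Srf, in capitals. A CArG box lay in the same window of 1.62% of all genes of the table and of 3 of the 20 matched actomyosin genes that fell. Over all tested members of the list, whatever their call, 4 of 24 matched genes held one, Srf among them. Whether the box goes with the fall within the list was not tested.
Vcl: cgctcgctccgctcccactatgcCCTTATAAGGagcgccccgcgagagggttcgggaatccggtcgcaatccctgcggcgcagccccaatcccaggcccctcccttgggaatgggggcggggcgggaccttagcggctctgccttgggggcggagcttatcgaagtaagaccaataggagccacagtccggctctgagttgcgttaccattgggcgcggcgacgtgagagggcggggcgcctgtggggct
Myl9: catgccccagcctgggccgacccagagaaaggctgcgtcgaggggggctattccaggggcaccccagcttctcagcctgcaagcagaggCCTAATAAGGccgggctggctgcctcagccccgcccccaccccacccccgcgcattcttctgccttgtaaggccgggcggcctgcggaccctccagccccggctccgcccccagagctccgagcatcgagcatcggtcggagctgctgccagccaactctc
Cnn2: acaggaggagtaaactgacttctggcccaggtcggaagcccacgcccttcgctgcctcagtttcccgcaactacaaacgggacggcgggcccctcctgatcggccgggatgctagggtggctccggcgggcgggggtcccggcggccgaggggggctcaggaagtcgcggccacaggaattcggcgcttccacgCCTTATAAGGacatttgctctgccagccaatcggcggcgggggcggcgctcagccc
Myl9 fell from 648, 628 and 504 CPM to 76.3, 73.9 and 85 CPM (-2.92 ± 0.11), Cnn2 from 941, 887 and 732 CPM to 239, 303 and 281 CPM, and Vcl from 1074, 1136 and 1120 CPM to 452, 495 and 525 CPM. Vcl and Cnn2 were picked for their sequences. Of 20 targets of the Hippo pathway effector Yap, which responds to tension, 13 fell and 3 rose (median -0.442). Rbms3 (-1.50) and the receptor tyrosine kinase Axl (-1.02 ± 0.08) fell and Dock5 rose (0.91 ± 0.09).

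**Figure D3:**
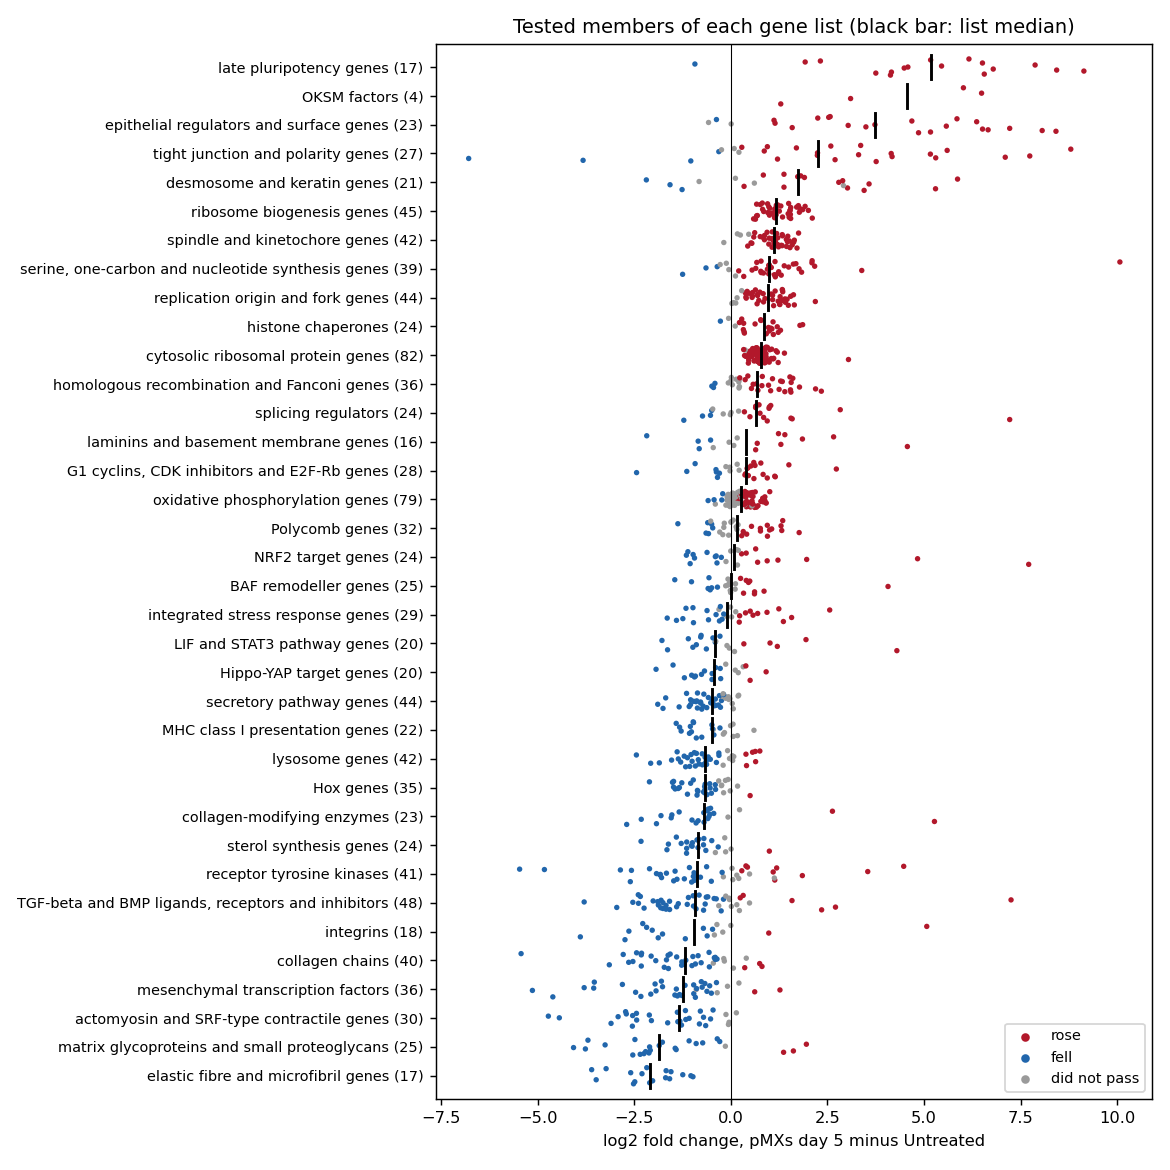
Log2 fold change, pMXs minus Untreated (x axis), of each tested member of 36 gene lists (rows, number tested in brackets), coloured by call, with a black bar at the list median. Lists of pluripotency, epithelial and junction genes reach beyond 5, as do several other lists. The farthest gene, at 10.1, is in the serine, one-carbon and nucleotide synthesis list. Ribosome biogenesis genes lie within a narrow band around their median of 1.18, and elastic fibre and microfibril genes lie below 0 throughout. Positions of genes without reads in 1 group rest on the prior count of the fit.

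Late pluripotency genes were higher with pMXs, from near absence. Of 26 listed genes 17 were tested, 16 rose and 1 fell (median 5.17, or 4.58 with Eras at its bound), and 9 were below the filter. The median was 6.1 without Untreated replicate 100 and 3.95 over all 26 genes with no filter. Fgf4, an autocrine growth factor of the epiblast, rose from 0, 0.151 and 0.0973 CPM to 51.3, 51.5 and 38 CPM. The zinc finger factor Sall4 had 3 counts in the Untreated libraries together against 713 (ratio 271, 95% counting interval 92.4 to 1320), Gdf3, a TGF-beta family ligand, had 2 against 717 (ratio 409, interval 113 to 3380), and Lin28a, which blocks let-7 maturation, had 2 against 241 (ratio 137, interval 37.6 to 1140). Nanog, a homeobox factor at the core of the network, rose from 0.791, 0.655 and 0.341 CPM to 15.4, 14.8 and 10.5 CPM (22.4-fold). The groups did not overlap in either of these. Tbx3, a T-box factor of stem cells and of limb mesenchyme, fell from 28.8, 31.9 and 28 CPM to 14.4, 16.8 and 15.1 CPM. Below the filter, Dppa5a had 0 reads in all 6 libraries and Zfp42 stood at no more than 0.254 CPM with pMXs.

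Genes of signalling pathways were lower more often than higher. LIF acts through the receptor chains Lifr and Il6st to activate Stat3, and of 20 genes of this pathway 5 rose and 11 fell (median -0.40). Il6st was at 728, 777 and 782 CPM against 227, 234 and 272 CPM, and Lifr did not pass (adjusted p = 0.5). Socs3, a Stat3 target and feedback inhibitor, rose from 31.2, 31.1 and 34.7 CPM to 109, 140 and 124 CPM, and Lif itself from 16.2, 15.8 and 14.9 CPM to 34.9, 38.1 and 35 CPM, while the related inhibitor Socs2 fell by 1.79 ± 0.12. Receptor tyrosine kinases fell in 25 and rose in 9 of 41 tested (median -0.891). Tek, the angiopoietin receptor, rose by 4.47 ± 0.11 and Kit, the stem cell factor receptor, from 0.832, 1.01 and 1.7 CPM to 17.4, 11.4 and 12.4 CPM, whereas Ntrk3, a neurotrophin receptor, fell by 4.83 ± 0.21.

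Genes of the TGF-beta and BMP pathways fell in 34 and rose in 6 of 48 tested (median -0.936). By role, a grouping made afterwards, 11 of 15 tested ligands fell and 2 rose, 8 of 10 extracellular inhibitors fell and 1 rose, 6 of 12 receptors and co-receptors fell and 2 rose, and 6 of 8 Smads fell and 1 rose. Medians were -1.76 for ligands, -1.74 for inhibitors, -0.284 for receptors and -0.408 for the Smads, which carry the signal inside the cell. Grem1, a secreted BMP antagonist, fell by 2.54 ± 0.17. Nodal, the ligand of the epiblast, had 3 counts in the Untreated libraries together against 462 (ratio 176, 95% counting interval 59.7 to 855), and Bmp6 (2.71 ± 0.15) and the activin receptor Acvr2b (2.35 ± 0.12) rose.

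Genes for growth and division rose broadly and by moderate amounts. All 45 ribosome biogenesis genes rose (median 1.18), as did 39 of 44 replication origin and fork genes (median 0.962) and 38 of 42 spindle and kinetochore genes (median 1.10), with 0 falling in each. In some alternatives 1 spindle gene fell. Among these were the fits without Untreated replicate 100 or pMXs replicate 250. Others had a block for the replicate number, or a term parting numbers 1 and 2 from 100 and 250. Summed ribosome biogenesis genes were at 3297, 3245 and 2896 CPM in the Untreated libraries and 8634, 8854 and 8293 CPM with pMXs. Ncl, the nucleolar protein nucleolin, went from 885, 892 and 794 CPM to 2479, 2501 and 2384 CPM, and Dkc1, the pseudouridine synthase of small nucleolar particles, from 44.4, 41.4 and 34.8 CPM to 174, 182 and 164 CPM. Npm1, which also serves as a histone chaperone, rose by 1.86 ± 0.09. Of 82 cytosolic ribosomal protein genes 81 rose (median 0.79) and Rps27 did not pass (adjusted p = 0.051), with the limit that many have near-identical copies among which reads could be split. The replication helicase genes Mcm2 to Mcm7 made 6 of 6 rising, and Mcm10 rose from 8.28, 5.74 and 5.3 CPM to 33.8, 28.8 and 25.9 CPM. Among Untreated libraries the summed replication genes were highest in replicate 1 (1078 CPM) and lowest in replicate 100 (857 CPM), below all pMXs libraries (1779 to 1938 CPM).

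Control genes of the cell cycle were mixed, and repair genes mostly rose. Of 28 G1 cyclin, CDK inhibitor and E2F-Rb genes 16 rose and 7 fell (median 0.399). E2f2, an activating E2F, was at 2.33, 2.06 and 2.24 CPM against 17.2, 13.6 and 13.5 CPM, and Rb1, which restrains E2F factors, also rose, from 36.3, 46.4 and 55.5 CPM to 129, 132 and 129 CPM. The abundant D-type cyclin Ccnd2 rose from 3290, 3671 and 4016 CPM to 6957, 6713 and 7401 CPM. The CDK inhibitor Cdkn1c fell from 104, 84.3 and 134 CPM to 9.13, 23.7 and 26.1 CPM. Homologous recombination and Fanconi genes rose in 24 and fell in 3 of 36 (median 0.68). Brca1, a central repair factor, was at 14.5, 13.1 and 8.71 CPM against 64.3, 59.6 and 60.8 CPM, and the nuclease Exo1 rose by 2.19 ± 0.15.

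Among chromatin genes, histone chaperones rose in 21 and fell in 1 of 24 (median 0.847), with Nasp, a carrier of newly made histones, at 37.5, 29.8 and 27.9 CPM against 118, 110 and 100 CPM. Of 32 Polycomb genes 14 rose and 6 fell (median 0.146). Split by complex after values were seen, 7 of 9 genes of Polycomb repressive complex 2 rose (median 0.765), and 7 of 23 genes of complex 1 rose and 5 fell (median 0.0107). No test compared the complexes. Suz12, a core subunit of complex 2, rose from 57, 64.6 and 69.8 CPM to 166, 158 and 162 CPM and its enzyme Ezh2 by 1.32 ± 0.09, while its accessory protein Phf1 fell by 1.37 ± 0.17. BAF remodeller genes rose in 9 and fell in 7 of 25 tested (median -0.00808). The BAF and complex 1 counts are near or below the 35.0% of all tested genes that moved in each direction. Among these, Smarcd3, a subunit of muscle and heart complexes, fell by 1.45 ± 0.10 and Bcl7a rose by 0.86 ± 0.13. Of the dioxygenases related to Tet2, Tet3 rose (74, 78.1 and 67.9 CPM against 125, 98.8 and 110 CPM, 0.60 ± 0.14), and Tet1 did not pass, with pMXs replicate 2 at 35.4 CPM and replicates 100 and 250 at 17.2 and 20.6 CPM against 19.4, 22.9 and 28.4 CPM in Untreated. Among replicate numbers 1 and 2 the only pMXs library lay above both Untreated ones, and among 100 and 250 both pMXs libraries lay below the only Untreated one, so that the sign for Tet1 differs with the libraries set side by side.

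Metabolic genes separated by pathway. Serine, one-carbon and nucleotide synthesis genes rose in 32 and fell in 3 of 39 (median 0.995). Tdh, the mitochondrial threonine dehydrogenase that mouse embryonic stem cells rely on, had 2 counts in the Untreated libraries together and 2257 with pMXs (ratio 1290, 95% counting interval 356 to 10600), at 34.1, 41.5 and 43.4 CPM with pMXs. Gldc, the glycine decarboxylase of the mitochondrial cleavage system, rose by 3.39 ± 0.27, the purine enzyme Ppat by 2.17 ± 0.08 and the pyrimidine enzyme Umps by 2.10 ± 0.10. Within the same list the mitochondrial folate enzyme Mthfd2 fell (74.7, 71.9 and 68.2 CPM against 48.2, 44.7 and 44.3 CPM), as did Phgdh, the first enzyme of serine synthesis, in which the groups overlapped (66.4, 56.5 and 37 CPM against 43, 39.2 and 43 CPM, adjusted p = 0.0459). The Phgdh call was lost without any 1 of 5 libraries (adjusted p = 0.0711 to 0.296), all but Untreated replicate 100, and with library totals (0.275). Oxidative phosphorylation genes rose in 42 and fell in 4 of 79 tested (median 0.253), or 60 and 2 with library totals (median 0.42). In the fit with scaling factors, 15 of 35 rose in complex I and 8 of 10 in complex III with cytochrome c, a grouping made afterwards. Uqcrfs1, the iron-sulfur protein of complex III, was at 60.8, 60 and 68.7 CPM against 127 CPM in each pMXs library.

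Genes of sterol synthesis, lysosomes and secretion were lower. Sterol synthesis genes fell in 19 and rose in 1 of 24 (median -0.866), with Fdps, which makes farnesyl pyrophosphate, at 62.9, 55.9 and 34.7 CPM against 18.2, 15.4 and 15.1 CPM and Msmo1, a sterol methyl oxidase, at 150, 155 and 128 CPM against 52.4, 48.8 and 40 CPM. Ebp, a sterol isomerase, was the 1 that rose, by 0.99 ± 0.10. Lysosome genes fell in 30 and rose in 6 of 42 tested (median -0.674). Ctsk, a collagen-cleaving cathepsin, fell by 1.85 ± 0.17 and the lysosomal regulator Mitf by 2.45 ± 0.24, and its relatives Tfeb (0.75 ± 0.12) and Tfe3 (0.63) rose. Secretory pathway genes fell in 32 and rose in 0 of 44 (median -0.48), or in 27 and 4 with library totals (median -0.312). Kdelr3, a receptor that returns proteins to the endoplasmic reticulum, was at 118, 111 and 117 CPM against 31.5, 31.8 and 29.4 CPM, and Sec24d, a coat protein of transport vesicles, at 138, 133 and 131 CPM against 38.7, 41.3 and 44.8 CPM.

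**Figure D4:**
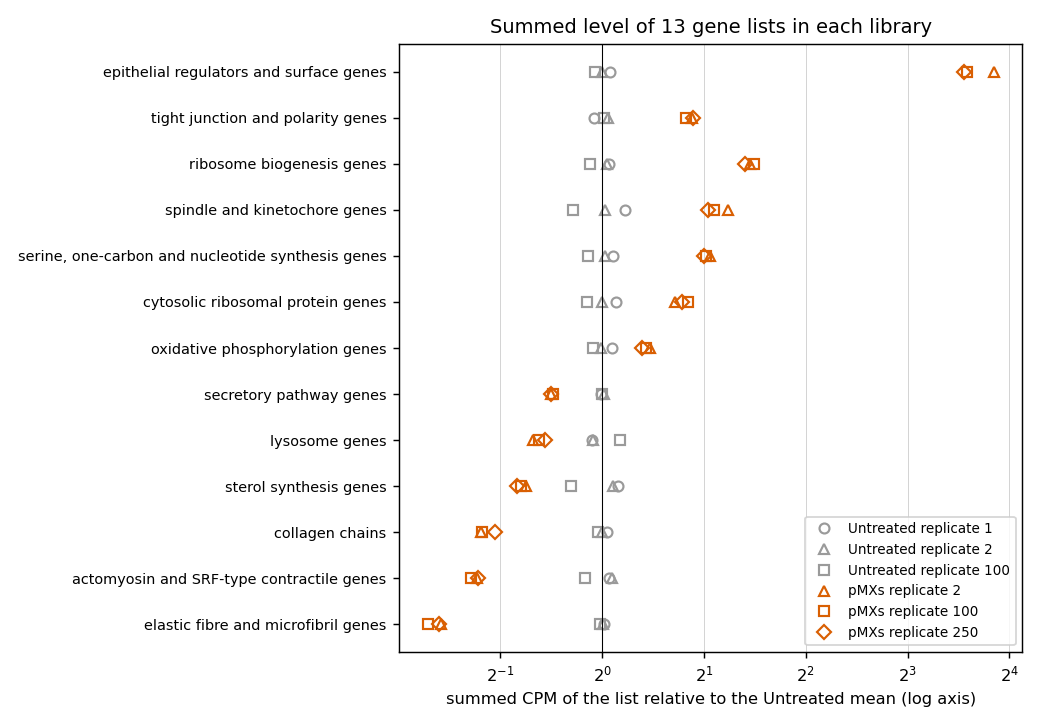
Summed CPM of 13 gene lists in each library relative to the Untreated mean (x axis, log scale with base 2), grey for Untreated and orange for pMXs. The 13 lists were picked for display, and in each of them the 3 orange symbols stand apart from the 3 grey ones. Epithelial regulators are highest (12.7 times the Untreated mean) and elastic fibre and microfibril genes lowest (0.322 times). Among lists not drawn, the sums of integrated stress response genes and of NRF2 targets overlapped between the groups. Cdh1 alone made 305 of the 519 CPM of the epithelial sum with pMXs, and 0.898 of 40.7 CPM in Untreated (group means).

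Splicing regulators rose in 15 and fell in 4 of 24 (median 0.64): Rbm38 rose from 7.95, 6.9 and 5.89 CPM to 50.4, 50.1 and 47.5 CPM, and Celf2 (-1.22 ± 0.10) and Mbnl1 (-0.53 ± 0.11), regulators of differentiated cells, fell. Genes of MHC class I presentation fell in 14 and rose in 0 of 22 tested (median -0.485), or in 11 and 4 with library totals, with the peptide transporter Tap2 at 21.1, 19.4 and 20.4 CPM against 5.39, 7.47 and 10.1 CPM. The integrated stress response, read by the factor Atf4, had 11 rising and 13 falling of 29 tested (median -0.108), and 12 and 8 when libraries were scaled by their totals, and 11 and 10 of 30 without pMXs replicate 2. The arginine transporter Slc7a3 rose (15.7, 18.2 and 17.1 CPM against 106, 97.1 and 97.1 CPM) and the stress factor Ddit3 fell (36.2, 36.7 and 33.1 CPM against 12.6, 10.2 and 11.2 CPM). Targets of the oxidative stress factor NRF2 had 9 rising and 10 falling of 24 tested (median 0.0694), and 12 and 7 with library totals. The counts of both stress lists are not far from the 35.0% of all tested genes that moved in each direction. The aldehyde dehydrogenase Aldh3a1 (1.08, 1.21 and 0.973 CPM against 268, 220 and 198 CPM) and the glutathione transferase Gsta4 (4.83, 3.58 and 5.16 CPM against 158, 126 and 104 CPM) rose, while the widely used target Nqo1 fell by 1.15 ± 0.23.

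Markers of other cell types that the cultures could hold were read as whole lists. Of 14 macrophage markers 6 were tested, 3 rising and 3 falling. Their sum was 6.5 to 7.2 CPM in the Untreated libraries and 81.3 to 94.9 CPM with pMXs, of which Laptm5 made 88.1, 75 and 76.8 CPM, while Adgre1, C1qa, C1qb, Ptprc, Tyrobp and Cd53 had 0 reads in all pMXs libraries. Of 8 tested endothelial markers 3 rose and 3 fell (2 and 4 without Untreated replicate 1, 2 and 3 of 9 without pMXs replicate 2), with Pecam1 at 0.464 against 0.0933 CPM beside the rise of Tek. Skeletal muscle markers fell in 8 of 8 tested, in 6 of 8 without pMXs replicate 2 or 250, where Myh3 and Tnni1 lost their calls, and in 7 of 8 without Untreated replicate 1 or 100 or with library totals, where Myh3 did. Their sum was 161 to 189 CPM in Untreated and 27.4 to 34.9 CPM with pMXs, and Myog and Myod1 were below the filter. Of 16 tested neural markers 7 rose and 4 fell (10 and 4 without pMXs replicate 2), while their sum was lower with pMXs in every library, at 317 to 347 CPM in Untreated against 180 to 246 CPM. The proneural factor Neurog2 had 1 count in Untreated against 342 (ratio 390, 95% counting interval 69.5 to 15400), the neurofilament gene Nefl went from 2.95, 2.97 and 1.7 CPM to 57.3, 35.5 and 26.3 CPM, and the neuronal tubulin gene Tubb3 fell by 1.19 ± 0.32. Of 12 tested keratinocyte markers 5 rose and 3 fell, with a sum of 81.2 to 88.3 against 371 to 445 CPM, most of it Perp (63.8, 72.1 and 75.3 against 406, 400 and 342 CPM). Of 11 tested primitive endoderm and trophoblast markers 5 rose and 4 fell. For the endothelial, neural, keratinocyte and this last list, the counts are not far from the 35.0% of all tested genes that moved in each direction. Tfap2c, a factor of trophoblast and germ cells, had 2 counts in Untreated against 688 (ratio 392, interval 108 to 3250), and Gata6, a factor of primitive endoderm and of mesoderm, fell from 23.1, 18.9 and 23.1 CPM to 5.83, 6.36 and 6.23 CPM. Of 9 adipocyte and chondrocyte markers 8 fell and 0 rose (1 with library totals, DESeq2 or some libraries left out), with the chondrocyte factor Sox9 (-3.58 ± 0.16) and the cartilage matrix gene Comp (-4.26 ± 0.16) among them. Among 3 tested erythroid markers 2 rose, the transferrin receptor Tfrc by 2.08 ± 0.24 and Hbb-y, which was at 0 in Untreated and is at least 14.4-fold higher on the same floor. The part of such cells, and of the feeder MEFs, in the changes above was not tested.

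The 24 leading genes were then read in the other day 5 cultures, which carried wild-type Tet2 (Tet2-WT) or the stalling mutant Tet2-E. These comparisons share the pMXs libraries with the one above, so only their own values are given. Of the 24 genes 9 differed between Tet2-WT and pMXs, where 12.5% of all genes did, and 0 between Tet2-E and pMXs (0.0479% of all genes). DESeq2 called 13 and 2, in the same order. Among the 12 leading higher genes 3 were higher with Tet2-WT (Aldh3a1, Laptm5 and L1td1) and 1 was lower (Bex1). Aldh3a1 was at 268, 220 and 198 CPM with pMXs and 925, 844 and 746 CPM with Tet2-WT (1.88 ± 0.13, adjusted p = 7.56e-07), and L1td1, an RNA-binding protein gene of stem cells, at 357, 306 and 293 CPM against 538, 537 and 462 CPM. Among the 12 leading lower genes 5 were lower still with Tet2-WT and 0 were higher. Ptn was at 18.4, 17.1 and 20.7 CPM with pMXs and 5.06, 6.75 and 7.5 CPM with Tet2-WT, and the opioid precursor Penk at 8.68, 12.8 and 17.3 CPM against 1.36, 2.5 and 2.63 CPM. Podxl did not pass with Tet2-WT (563, 561 and 457 CPM, adjusted p = 0.734). The untreated level of Penk varied from 270 to 737 CPM, far above all day 5 cultures.

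**Figure D5:**
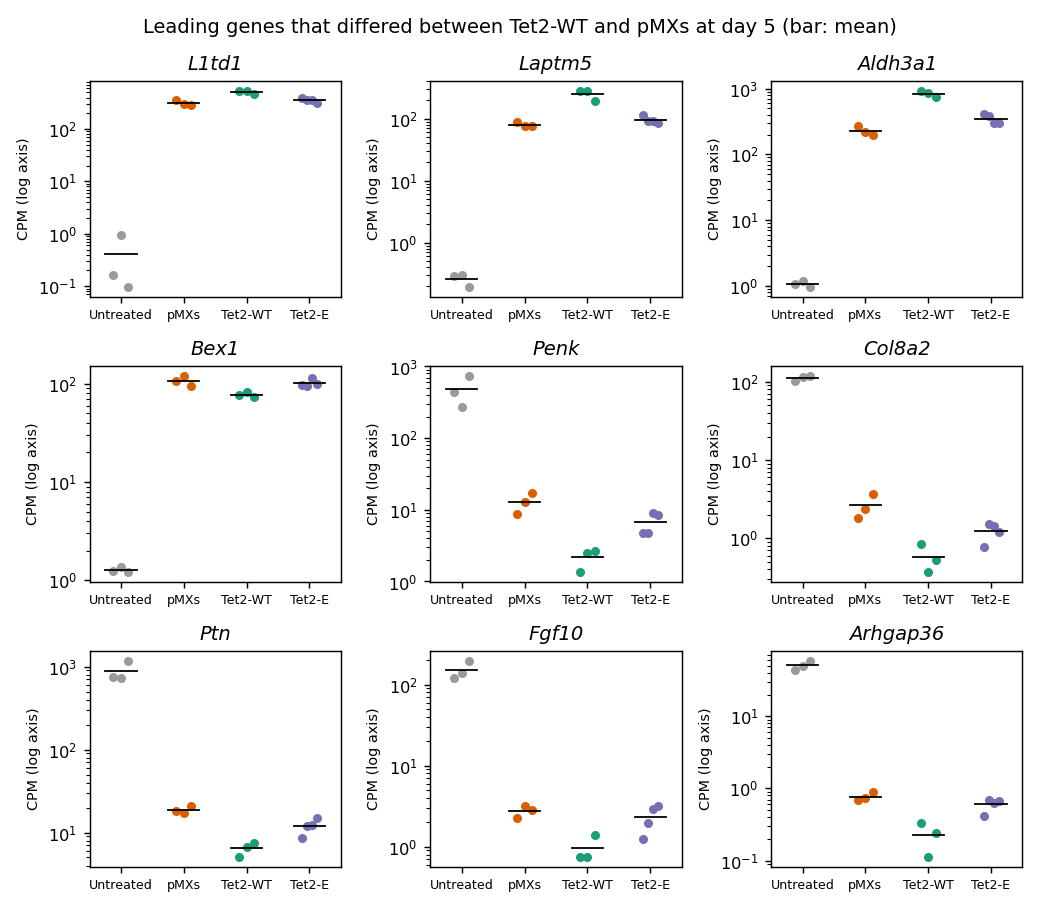
CPM on a log axis (y) of the 9 leading genes that differed between Tet2-WT and pMXs, in each library of the 4 groups (x), with a bar at the group mean; n = 3 per group and 4 for Tet2-E. For each gene the day 5 groups lie on the same side of the Untreated libraries, and Tet2-WT lies farther from them than pMXs in 8 of the 9, Bex1 being the exception.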

How the data were processed

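RNA was measured by stranded mRNA-seq of 13 libraries, 6 of which enter the comparison. Per the submitters' processing notes, STAR 2.6.1a, SAMtools 1.7, bedtools 2.27.1, featureCounts 1.6.2, R 3.6.2 and DESeq2 1.26.0 were used, and mm9 is the build named. The deposited values are whole-number read counts per gene made by the authors. Whether the counting used strand is not given in the sources used here, so genes that overlap an antisense partner, like genes with near-identical copies, are uncertain.

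From the counts, edgeR 4.0.16 in R 4.3.3 fitted 1 mean per group over all 13 libraries (TMM scaling, robust quasi-likelihood test, filterByExpr with a minimum count of 10 and a minimum total of 15). Of 24495 genes, 14607 passed this filter and 9888 were not tested. Adjusted p-values are Benjamini-Hochberg values over the 14607 genes. CPM use the scaled library totals, and error in CPM is the SD. Ratios of genes with 1 to 3 counts in a group carry exact 95% intervals, which cover counting error only. The floor for a group at 0 was 3 counts over the group. The fit was also run on simulated counts of 13878 genes, with 100 changed by 1 and 100 by 2 on the log2 scale. It recovered 91% and 100% of these, and 3.05% of the called genes were false. Far fewer genes changed there than in these data. The simulation therefore cannot check the scaling or the error rate where most genes change. Alternatives were other scalings, DESeq2 1.42.0, other filters, a block for the replicate number, subsets of libraries and leaving out each library.

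Nothing in the labels says that replicates came from separate cultures, so p-values measure the spread between these libraries. The members and the gene lists were chosen with earlier results of these data known. Named genes are Tet2, its relatives Tet1 and Tet3, and the OKSM genes; the 12 higher and 12 lower called genes with the largest change, at least 50 CPM in the higher group and no overlap between groups, omitting gene models without a name; from each of 44 lists the most changed called members, at most 4 per direction, that reached 1 CPM in 1 group, or 2 by smallest p in lists with none; and all members of a list with 8 or fewer tested. Genes outside this rule, among them those near absence in 1 group, those that did not pass and some named as examples, were picked after their values were seen. Some genes that the rule names are not reported here.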

Additional observations from a re-analysis of the deposited data

How the results depend on the processing

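The number of called genes (10234) ranged from 9340 to 10466 over the alternatives and from 9648 to 10024 when 1 library was left out. Between 84.6% and 99.6% of the called genes were called again under each alternative. With library totals only, 10428 genes were called, 6299 of them higher and 4129 lower, and the median shift of all genes was 0.166 on the log2 scale. Of 287 named genes, between 0 and 17 lost their call under an alternative, the most within replicate numbers 1 and 2, 11 within 100 and 250, 11 without Untreated replicate 1 and 10 with library totals only. Tet1 turned to -0.60 within replicate numbers 100 and 250 and Phgdh to 0.15, where the Untreated arm is 1 library whose spread is assumed to be that of the other groups; likewise 1 pMXs library stands for its group within numbers 1 and 2. These values say nothing about stability. The cause was not tested. With the replicate number as a block, 10333 genes were called between pMXs and Untreated, and 14 in place of 9 leading genes differed between Tet2-WT and pMXs, and 1 in place of 0 between Tet2-E and pMXs. Same-numbered libraries of the 2 groups correlated at 0.226 (number 2) and 0.079 (number 100) in their deviations from the group means, and other pairs at -0.169 to 0.128. With 2 shared numbers and no stated pairing, the numbers were not taken as pairs. Depth limits genes with few counts in 1 group, whose ratios have wide intervals.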
